A study of Mus musculus with 45 samples.

Results

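The 9 genes described here encode ion channels that link glucose to insulin secretion in the pancreatic islet. They were listed by symbol, with earlier results of these data known, among them the fall of Trpm5 and Kcnj12 in the NZO/HlLtJ strain. Kcnj11 and Abcc8 form the ATP-sensitive potassium (KATP) channel, and Cacna1c, Cacna1d and Cacna1a form the pores of voltage-gated calcium channels. Kcnj12 is a strong inward rectifier, Trpm4 and Trpm5 are calcium-activated cation channels, and Kcnk16 is a background potassium channel. Each symbol has 1 row among the 22904 genes of the deposited matrices, and all 9 passed the filter on low counts that left 20306 genes for testing.

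Islets of Langerhans, the endocrine cell clusters of the pancreas, were taken from female and male wild-type mice of 3 inbred strains and sequenced as bulk polyadenylated RNA. C57BL/6J is a common laboratory strain whose Nnt gene carries a deletion, CAST/EiJ is a wild-derived strain, and NZO/HlLtJ is an obese strain prone to diabetes. From 6 weeks of age mice ate a control diet with 10% fat or a diet with 44% fat that the treatment protocol also calls high in sugar. Both diets contained fiber, and islets were collected at 16 weeks. Strain, sex and diet gave 12 groups, 9 of them with 4 libraries and 3 of them (CAST/EiJ males on 10% fat, NZO/HlLtJ males on either diet) with 3 libraries. The labels name no other allele, transgene or drug, each strain is 1 inbred genotype, and the labels do not say whether a library came from 1 mouse or from pooled mice. P-values therefore measure the spread between these libraries. In bulk RNA, fewer cells of a type and less RNA per cell cannot be told apart.

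In a beta cell at rest, open KATP channels hold the membrane potential negative. Glucose metabolism raises ATP and closes them, the membrane depolarises, voltage-gated calcium channels open, and calcium entry triggers insulin granule release. TRPM4 and TRPM5 pass sodium when calcium rises and add to the depolarisation, and background potassium channels oppose it.

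The sequences around the transcription starts of Trpm5, Kcnj12 and Kcnk16 are shown because Trpm5 and Kcnj12 fell in NZO/HlLtJ of both sexes and Kcnk16 had the opposite order of strains from Trpm5, as described below. Each line holds 300 bases of the RefSeq reference (GRCm38.p6, a C57BL/6J genome), from 250 bases before to 50 bases after an annotated start, 5′ to 3′ on the strand of the gene. Capitals mark CAGATG or its complement CATCTG, an E-box of the type that the islet factor NeuroD1 binds.
Trpm5, chr7:143094593-143094892, minus strand: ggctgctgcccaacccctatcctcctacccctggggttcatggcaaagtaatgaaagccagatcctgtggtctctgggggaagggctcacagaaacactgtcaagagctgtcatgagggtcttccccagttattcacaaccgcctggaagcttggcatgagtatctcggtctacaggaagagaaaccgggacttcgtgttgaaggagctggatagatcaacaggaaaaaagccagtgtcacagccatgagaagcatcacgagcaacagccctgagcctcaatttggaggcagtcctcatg
Kcnj12, chr11:61065554-61065853, plus strand: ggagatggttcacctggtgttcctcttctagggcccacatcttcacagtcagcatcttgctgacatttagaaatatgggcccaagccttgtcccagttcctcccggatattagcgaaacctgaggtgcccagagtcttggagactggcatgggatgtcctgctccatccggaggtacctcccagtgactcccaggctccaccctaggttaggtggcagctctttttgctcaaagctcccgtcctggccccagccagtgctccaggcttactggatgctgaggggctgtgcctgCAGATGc
Kcnk16, chr14:20269220-20269519, minus strand: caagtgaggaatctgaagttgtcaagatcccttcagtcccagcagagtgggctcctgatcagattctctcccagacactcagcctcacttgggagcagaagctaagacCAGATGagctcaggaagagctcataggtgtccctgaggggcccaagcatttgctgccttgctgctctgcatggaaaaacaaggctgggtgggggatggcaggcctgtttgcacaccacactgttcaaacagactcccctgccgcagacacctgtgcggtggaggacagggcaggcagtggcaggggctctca
The E-box letters occurred 1 time each in the windows of Kcnj12 and Kcnk16 and were not found in the window of Trpm5, and 17.2% of 32851 windows of this length hold them on either strand. The Kcnj12 window is at a start inside the gene, whose annotated span begins at 61022564. Its match lies at the end of the window, after that start and not before it. None of these 3 windows held GTTAAT (a motif of HNF1 factors, in 7.10% of windows), GGGCGG (the GC box, 35.7%) or TATAAA (the TATA box, 13.6%), searched on both strands. RefSeq windows were matched for 5 of the 9 genes, with 8 starts in all. The starts of Cacna1d differed most: the window at chromosome 14, 30491107 to 30491406, had 40.3% GC and 3 TATAAA matches, and the one at 30353437 to 30353736 had 87.3% GC and 6 GGGCGG matches. Matches were counted on both strands with overlaps included, and in both windows some overlap, so there are fewer separate sites than matches. Kcnj11, Abcc8, Cacna1a and Trpm4 were not matched.

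Library totals ranged from 57.2 to 110 M counts (M, 1e+06 counts; median 84.4 M). Levels of Xist matched the labelled sex, with 531 to 1938 CPM (counts scaled to 1e+06 per library) among 24 libraries from females and 0.0442 to 15.4 CPM among 21 from males. The highest male value, 15.4 CPM, was in NZO/HlLtJ males on 44% fat, replicate 3, and replicates 1 and 2 of that group were at 0.351 and 0.344 CPM. CAST/EiJ females on 10% fat, replicate 4, had the largest share of acinar (exocrine) transcripts, 42.2% of its counts against a median of 5.07%. Sets of 7 to 23 transcripts were picked per pair of strains, with a median of at least 2 CPM in one and at most 0.02 CPM in the other. Their median level in libraries of the strain that lacks them was above 0 in 15 libraries. The third strain may carry them too, so the strain they came from is not identified. The 5 left out together in an alternative, which were named from an earlier look at these data and not by a threshold, were CAST/EiJ females on 44% fat, replicates 1, 2 and 4 (9.84%, 3.51% and 3.86% of the C57BL/6J level), NZO/HlLtJ males on 44% fat, replicate 3 (4.11% of the C57BL/6J level), and C57BL/6J females on 44% fat, replicate 2 (0.692% of the NZO/HlLtJ level). The other 10 were at 0.00363% to 0.656%, the highest of them NZO/HlLtJ males on 10% fat, replicate 3, close to the last of the 5. Differences between strains depend on how reads of each strain were aligned, which no label gives.

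Per kilobase of exon, the members ranged widely. In C57BL/6J females on 10% fat (n = 4), Abcc8 was highest at 115 ± 6.90 CPM per kb of the GENCODE exon union (mean ± SD). Kcnk16 followed at 32.0 ± 4.0, Trpm5 at 19.6 ± 2.85, Kcnj11 at 13.5 ± 1.42 and Cacna1d at 11.8 ± 0.448 CPM per kb. The ranges of Kcnj11 and Cacna1d overlapped, and the other neighbours in this order did not. Cacna1a was at 5.97 ± 0.941, Kcnj12 at 3.10 ± 0.248, Cacna1c at 2.05 ± 0.0794 and Trpm4 at 0.916 ± 0.142 CPM per kb. The place of Kcnj11 depends on the annotation: the deposited coordinates give it a span of 1173 bp, close to its coding part, where GENCODE M21 gives 3.677 kb of exon, and over the deposited span its mean is 42.3 CPM per kb.

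**Figure D1:**
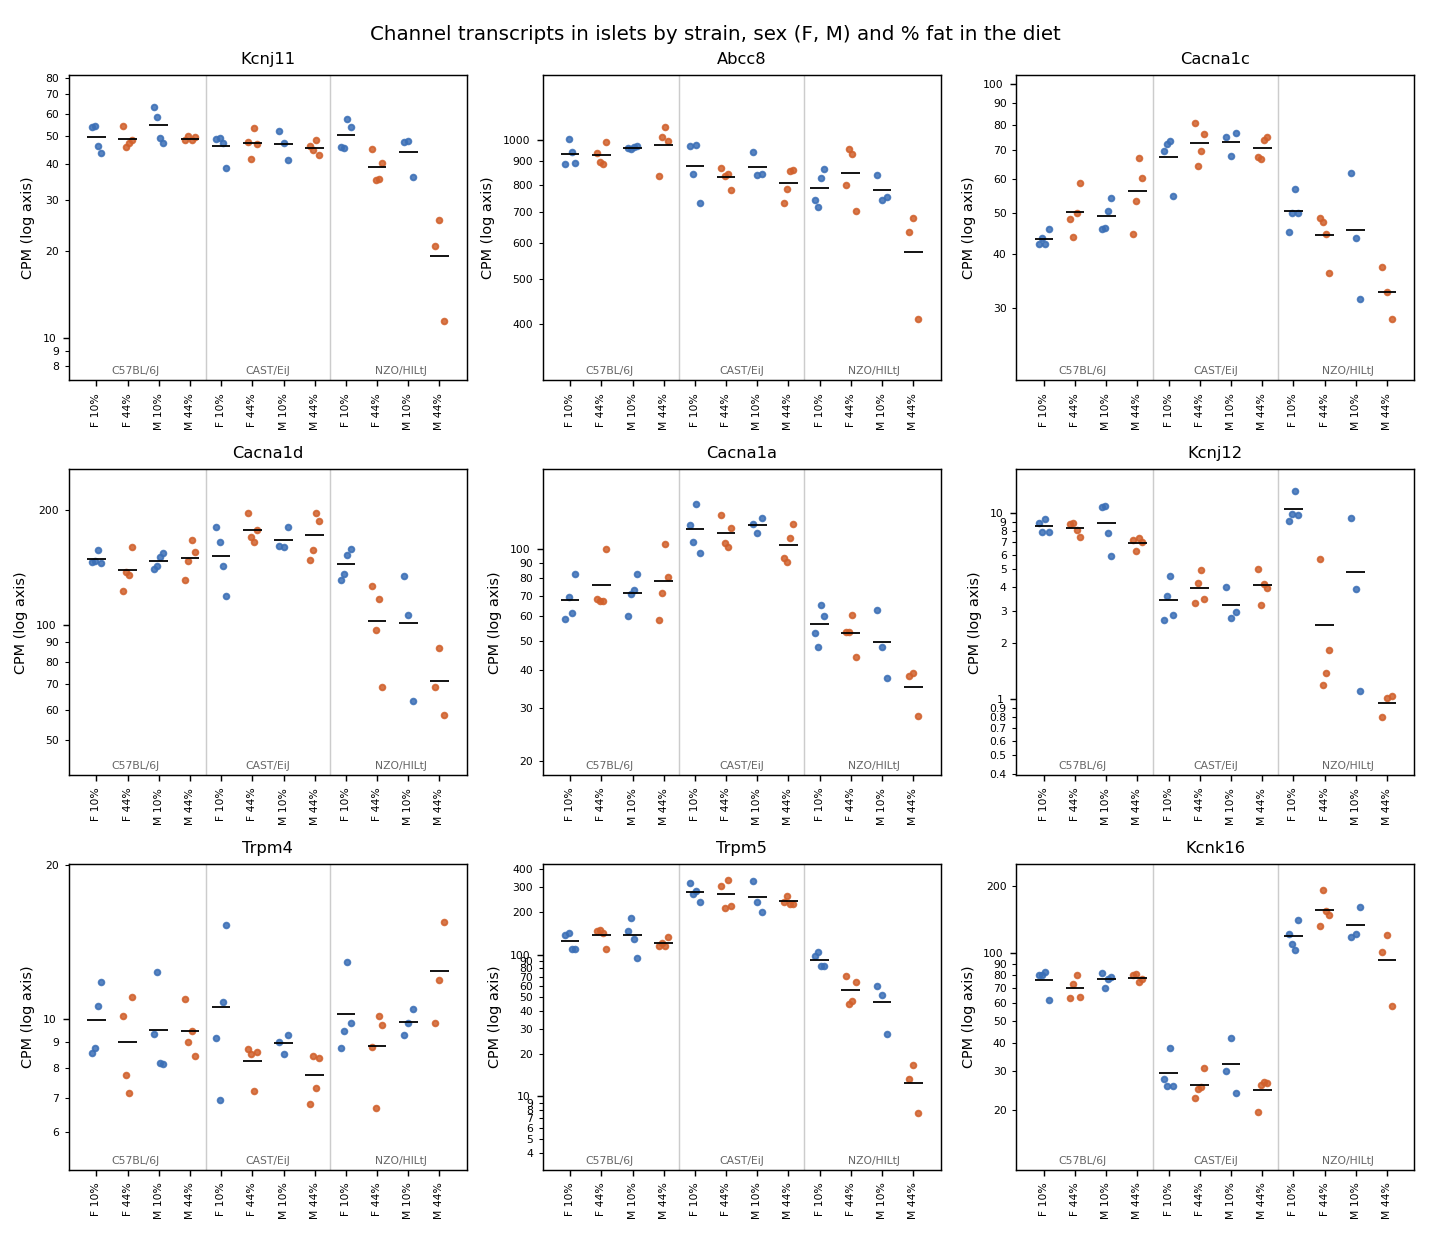
Levels of the 9 channel transcripts in CPM (log axis) in each of the 45 libraries, by strain, sex and diet. Points are libraries (blue 10% fat, orange 44% fat) and black bars are group means. In NZO/HlLtJ males on 44% fat Trpm5 lies at 7.67 to 16.6 CPM and Kcnj11 at 11.4 to 25.7 CPM, below every other library.

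The question for the diet comparison was whether 44% fat changed these transcripts and whether the change depended on strain. In NZO/HlLtJ, 5 of the 9 members fell on 44% fat when both sexes were averaged (7 libraries per diet) and 0 rose, where 17.3% of the 20306 genes tested were called lower and 35.8% in either direction at an adjusted p under 0.05. They were Kcnj12 (4.59-fold lower), Trpm5 (2.46-fold), Kcnj11 (1.72-fold), Cacna1d (1.41-fold) and Cacna1c (1.26-fold). The median log2 fold change of the 9 members was -0.33, beside -0.02 over all genes tested. The fall of Trpm5 and Kcnj12 was known when the genes were chosen, so this count and this median are not independent of these data. The same holds for the later counts of members that include these genes. In C57BL/6J and in CAST/EiJ 0 of 9 were called by edgeR, where 0.0246% and 0.0443% of all genes were. Before adjustment 1 member in C57BL/6J, Cacna1c (0.20 on the log2 scale), and 2 in CAST/EiJ, Trpm4 (-0.28) and Kcnk16 (-0.27), were under 0.05. Within single sexes 0 of 9 were called either, where 0% of all genes were called in C57BL/6J females, 0.0443% in its males, 0.256% in CAST/EiJ females and 0.00985% in its males, and diet by sex gave 0 of 9 in both strains (0% and 0.0295% of all genes).

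The diet effects of the strains differed by their own test. Between NZO/HlLtJ and C57BL/6J the effect was lower in NZO/HlLtJ for Kcnj12 (-2.0, adjusted p = 0.000558), Trpm5 (-1.27, adjusted p = 0.000235), Kcnj11 (-0.70, adjusted p = 0.00105), Cacna1c (-0.54, adjusted p = 0.00626) and Cacna1d (-0.46, adjusted p = 0.0413), 5 of 9 where 18.8% of all genes were called in either direction and 9.12% lower. The Cacna1d call held in 17 of 39 alternatives and was lost without any 1 of 16 libraries of these strains (-0.46 to -0.35), or without the 5 libraries with transcripts of another strain (-0.40, adjusted p = 0.134). The 16 were of C57BL/6J (females on 10% fat, replicates 1, 2 and 4; females on 44% fat, replicate 4; males on 10% fat, replicates 1 and 2; males on 44% fat, replicates 3 and 4) and NZO/HlLtJ (females, replicates 3 and 4 on 10% fat and 2 and 4 on 44% fat; males, replicates 1 and 2 on 10% fat and 1 and 3 on 44% fat). Between NZO/HlLtJ and CAST/EiJ 4 of 9 were called (25.7% of all genes in either direction, 12.7% lower): Kcnj12 (-2.48, adjusted p = 5.64e-05), Trpm5 (-1.23, adjusted p = 0.000179), Kcnj11 (-0.78, adjusted p = 0.000276) and Cacna1d (-0.63, adjusted p = 0.00493). The Cacna1d call was lost without the 5 libraries with transcripts of another strain (-0.53, adjusted p = 0.0637). Cacna1a against C57BL/6J (-0.43, adjusted p = 0.0618) passed without any 1 of 6 libraries (NZO/HlLtJ females on 10% fat, replicate 2, males on 10% fat, replicate 3, or males on 44% fat, replicate 2; C57BL/6J females on 10% fat, replicate 4, males on 10% fat, replicate 4, or males on 44% fat, replicate 1), at -0.52 to -0.47. Cacna1c against CAST/EiJ (-0.36, adjusted p = 0.0532) passed without any 1 of 11 libraries (NZO/HlLtJ females on 10% fat, replicate 1, females on 44% fat, replicates 1 and 2, males on 10% fat, replicates 2 and 3, or males on 44% fat, replicate 1; CAST/EiJ females on 10% fat, replicates 2 and 3, females on 44% fat, replicate 2, or males on 10% fat, replicates 1 and 3), at -0.47 to -0.38, and with the series of the sample codes as a factor (-0.37, adjusted p = 0.0460). Between CAST/EiJ and C57BL/6J 0 of 9 were called (0.0197% of all genes). Both comparisons with NZO/HlLtJ share its libraries.

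**Figure D2:**
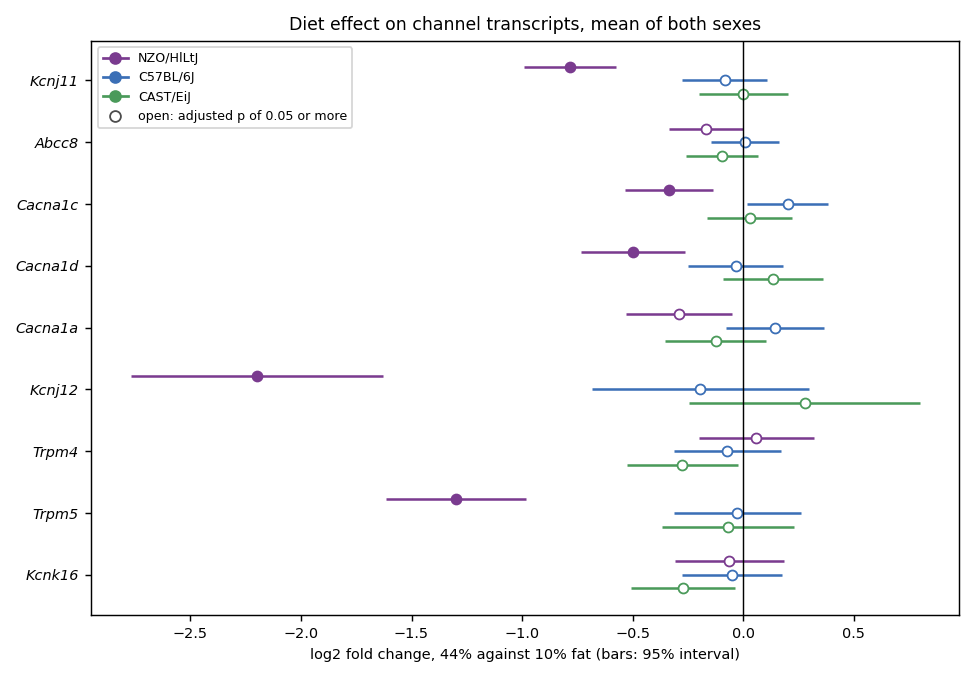
Log2 fold change of each channel transcript on 44% against 10% fat, as the mean of both sexes, in the 3 strains (bars are 95% intervals, filled points passed an adjusted p of 0.05). The 5 filled points are all in NZO/HlLtJ, from -2.20 for Kcnj12 to -0.33 for Cacna1c.

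By sex, 3 of 9 members fell in NZO/HlLtJ females (Kcnj12, Trpm5 and Cacna1d), where 7.83% of all genes were called lower and 17.2% in either direction, and 8 of 9 fell in males (all but Trpm4), where 15.1% and 32.1% were. The male effect was lower than the female effect for 4 of 9 by the interaction test (10.0% of all genes in either direction, 5.58% lower): Trpm5 (-1.19, adjusted p = 0.0149), Kcnk16 (-0.92, adjusted p = 0.0173), Kcnj11 (-0.82, adjusted p = 0.0126) and Abcc8 (-0.55, adjusted p = 0.0357). All 4 of these were lost without NZO/HlLtJ males on 44% fat, replicate 3, one of the libraries with transcripts of another strain: the difference was then -0.94 for Trpm5 (adjusted p = 0.113), -0.67 for Kcnk16 (adjusted p = 0.130), -0.55 for Kcnj11 (adjusted p = 0.0946) and -0.36 for Abcc8 (adjusted p = 0.251). Single libraries also ended the difference for Trpm5 (males on 10% fat, replicate 1: -0.97), Kcnk16 (females on 44% fat, replicate 2: -0.80; males on 10% fat, replicate 3: -0.76) and Abcc8 (females on 10% fat, replicate 1 or 2, females on 44% fat, replicate 2 or 3, or males on 10% fat, replicate 1: -0.52 to -0.48). Without males on 44% fat, replicate 3, 3 of the 8 male calls remained, those of Kcnj11, Kcnj12 and Trpm5, and these 3 held in all 15 alternatives. Of all 45 libraries, that replicate also had the lowest insulin share (3.92% of counts) and the lowest beta cell marker sum (55297 CPM). Its macrophage (928 CPM), fibroblast and stellate cell (3535 CPM) and duct (1874 CPM) marker sums were the highest of all 45. Their part in the sex differences was not tested. On 10% fat, averaged over the strains, males and females differed in 0 of 9 by edgeR (0.911% of all genes), with Trpm5 at an unadjusted p of 0.0167 (-0.32).

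**Figure D3:**
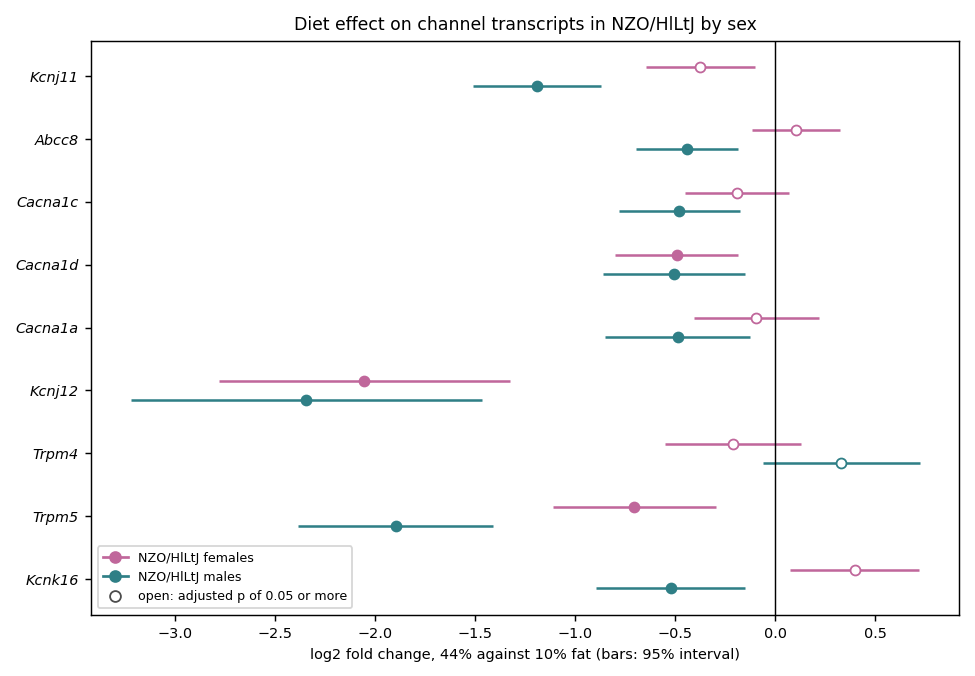
Log2 fold change of each channel transcript on 44% against 10% fat in NZO/HlLtJ females (4 libraries per diet) and males (3 per diet), with 95% intervals as bars and filled points at an adjusted p under 0.05. Trpm5 is at -0.70 in females and -1.90 in males, and Kcnj12 is at -2.05 and -2.34.

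Other transcripts moved with diet in the same NZO/HlLtJ libraries, and their part in the channel results was not tested unless a value is given. The summed level of the macrophage markers was 61.4 to 69.9 CPM in females on 10% fat and 163 to 231 CPM on 44% fat, and 87.1 to 274 CPM and 513 to 928 CPM in males. Among all genes 18.5% rose and 17.3% fell as a mean over the sexes. All 11 of the macrophage markers tested rose, 8 of 8 fibroblast and stellate cell markers rose, 6 of 8 duct markers rose, 1 of 23 acinar markers rose, and 7 of 10 beta cell markers fell as a mean over the sexes. In males 9 of 10 beta cell markers fell, and in females 2 rose and 1 fell. Insulin transcripts made up 8.43 to 12.5% of counts in females on 10% fat and 10.9 to 13.8% on 44% fat, against 11.8 to 14.2% and 3.92 to 8.26% in males. Acinar transcripts were at 9.10 to 18.5% of counts in males on 44% fat and at 4.72 to 6.13% on 10% fat. With an acinar score in the model, the effects were -2.15 for Kcnj12, -1.25 for Trpm5, -0.73 for Kcnj11, -0.48 for Cacna1d and -0.31 for Cacna1c. Ptf1a, an acinar factor, was at 0 in 1 library, and no other marker tested was at 0 in any library.

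The sample codes begin with 76, 80 or 89, a number series the labels do not explain. Within series 76 (2 NZO/HlLtJ females and 1 male per diet) the differences, averaged over the sexes with no test, were -2.69 for Kcnj12, -1.51 for Trpm5, -0.70 for Kcnj11, -0.61 for Cacna1d and -0.35 for Cacna1c. In its females they were -1.86, -0.84, -0.20, -0.27 and 0.02 in that order, and between its single males -3.52, -2.19, -1.20, -0.96 and -0.73, so the male library of each diet carried much of the means. In NZO/HlLtJ, series 80 paired females on 10% fat with males on 44% fat, and series 89 paired the opposite diets, so neither gives a diet effect within a sex. A difference between series 80 and 89 would enter the female and male diet effects with opposite signs, and thus the difference between the sexes. With the series as a factor in the model the same 5 members were called as a mean over the sexes, and 7 in place of 8 in males, where Cacna1a was lost (-0.37, adjusted p = 0.109). The 4 members whose diet effect differed between the sexes were also called with that factor.

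The KATP channel is an octamer of the pore subunit Kir6.2 (Kcnj11, ENSMUSG00000096146, chromosome 7, 46098725 to 46099897) and the sulfonylurea receptor SUR1 (Abcc8, ENSMUSG00000040136, chromosome 7, 46104523 to 46180033), whose genes lie on the same strand, 4.625 kb apart by these deposited coordinates. GENCODE M21 extends Kcnj11 to 46100764, which makes the gap shorter. Kcnj11 ranged over 43.9 to 63.1 CPM in C57BL/6J (16 libraries) and over 38.8 to 53.3 CPM in CAST/EiJ (15 libraries). Kcnj11 was not called between strains on 10% fat by edgeR with all groups in the model, with log2 differences of -0.14 between NZO/HlLtJ and C57BL/6J (95% interval -0.34 to 0.06), 0.02 between NZO/HlLtJ and CAST/EiJ (-0.19 to 0.23) and -0.16 between CAST/EiJ and C57BL/6J (-0.36 to 0.04). The last passed when only these strains were fitted (-0.17, edgeR adjusted p = 0.0358). On 44% fat NZO/HlLtJ was lower than C57BL/6J by 0.84 and lower than CAST/EiJ by 0.76.

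Kcnj11 in NZO/HlLtJ females was at 45.9, 45.6, 57.5 and 53.8 CPM on 10% fat and at 45.3, 35.2, 35.5 and 40.3 CPM on 44% fat. In males it was at 47.9, 48.1 and 36.3 CPM on 10% fat and at 20.8, 25.7 and 11.4 CPM on 44% fat. The diets did not overlap in either sex, although replicate 1 of the females on 44% fat lay next to the lowest control. The log2 effect was -1.19 in males (SE 0.16, adjusted p = 2.93e-06) and -0.37 in females (SE 0.14, adjusted p = 0.0565), which passed without that replicate (-0.45, adjusted p = 0.0293), without the 5 libraries with transcripts of another strain (-0.38, adjusted p = 0.0188) and with DESeq2 (-0.37, adjusted p = 0.0416). As a mean over the sexes it was -0.78 (SE 0.11, adjusted p = 7.99e-07), and it was called in all 23 alternatives.

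Abcc8, the regulatory subunit that binds sulfonylurea drugs, was at 838 to 1068 CPM in C57BL/6J, 731 to 975 CPM in CAST/EiJ and 409 to 955 CPM in NZO/HlLtJ. In NZO/HlLtJ males it was at 841, 743 and 754 CPM on 10% fat and at 632, 677 and 409 CPM on 44% fat, with no overlap. The male effect was -0.44 (SE 0.13, adjusted p = 0.00821) and was lost without replicate 3 on 44% fat (-0.25, adjusted p = 0.168). It was called in 11 of 15 alternatives. Library totals alone (adjusted p = 0.165), NZO/HlLtJ fitted alone (0.0730) and leaving out the 5 libraries with transcripts of another strain (0.171) also ended it. In females Abcc8 was at 718 to 866 CPM and 702 to 955 CPM, which overlapped (0.10, 95% interval -0.12 to 0.32). The mean over the sexes was -0.17 (adjusted p = 0.122), or -0.24 without males on 44% fat, replicate 2 (adjusted p = 0.0336). On 10% fat Abcc8 was lower in NZO/HlLtJ than in C57BL/6J by 0.27 (adjusted p = 0.00697), a call lost when counts were scaled to library totals alone (-0.24, adjusted p = 0.250). Against CAST/EiJ it was at -0.16 (adjusted p = 0.104), and among the alternatives run it passed in 1, without the CAST/EiJ library richest in acinar transcripts (-0.20, adjusted p = 0.0386).

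The subunits were also compared as the ratio of Abcc8 to Kcnj11 counts within each library, in which the scaling of the library cancels. The ratio was at 16.2, 15.8, 14.4 and 16.1 in NZO/HlLtJ females on 10% fat and at 17.7, 27.1, 26.2 and 17.4 on 44% fat. In males it was at 17.6, 15.5 and 20.8 on 10% fat and at 30.4, 26.3 and 35.9 on 44% fat. Every library on 44% fat lay above all those of its sex on 10% fat, and the ratio was 1.55-fold higher (0.63 on the log2 scale, exact permutation test within sex, two-sided p = 0.00143, the smallest this design allows, adjusted p = 0.00429 over 18 tests). Group means in C57BL/6J and CAST/EiJ lay between 17.7 and 19.9, and diet changed them by 0.08 (exact permutation adjusted p = 0.350) and -0.10 (adjusted p = 0.211). The size of the ratio itself depends on the annotated length of Kcnj11 and is not a ratio of molecules.

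**Figure D4:**
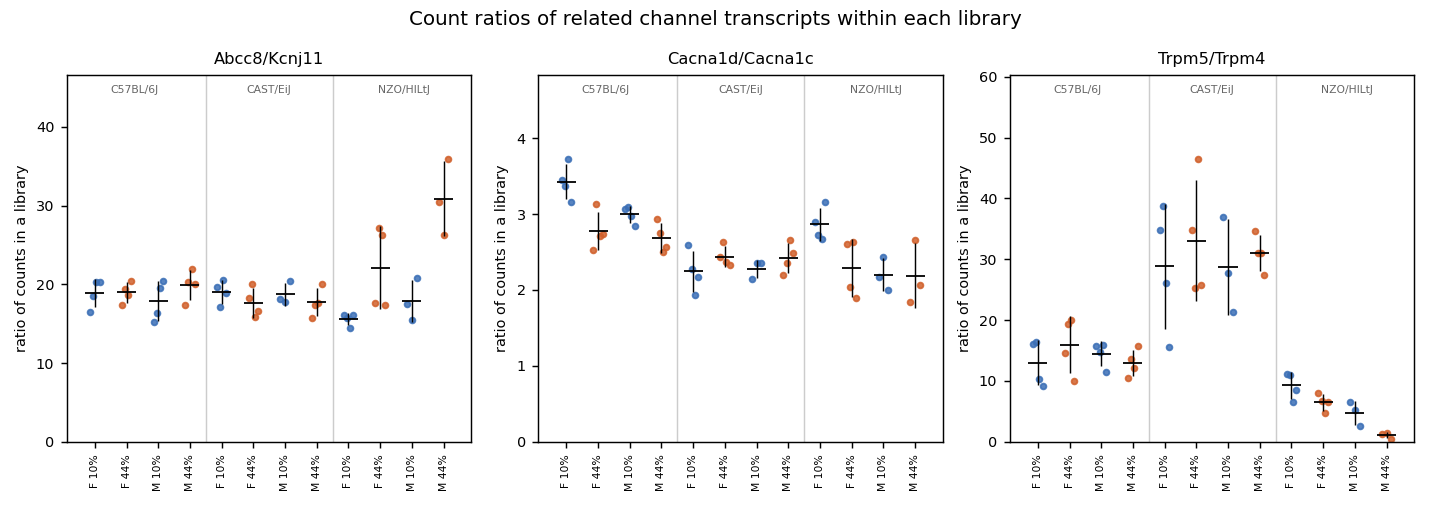
Ratios of counts within each library for Abcc8/Kcnj11, Cacna1d/Cacna1c and Trpm5/Trpm4, by strain, sex and diet (points are libraries, black bars are means with SD). In NZO/HlLtJ males the mean Abcc8/Kcnj11 ratio is 17.9 on 10% fat and 30.9 on 44% fat, and the mean Trpm5/Trpm4 ratio is 4.81 and 1.08.

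Among the calcium channel pores, Cacna1c (chromosome 6, 118587240 to 119196418) and Cacna1d (chromosome 14, 30039949 to 30491156) encode the L-type channels Cav1.2 and Cav1.3, and Cacna1a (chromosome 8, 84388440 to 84640246) encodes the P/Q-type channel Cav2.1. On 10% fat, Cacna1c was 1.52-fold higher in CAST/EiJ than in C57BL/6J (adjusted p = 1.97e-06) and Cacna1a was 1.69-fold higher (adjusted p = 1.04e-06). The libraries of these strains did not overlap in either gene on that diet. Cacna1a was lowest in NZO/HlLtJ, 2.24-fold below CAST/EiJ (adjusted p = 2.52e-10) and 1.33-fold below C57BL/6J (adjusted p = 0.00503), the second of which was lost with library totals alone (-0.36 on the log2 scale, adjusted p = 0.121). Cacna1c in NZO/HlLtJ was 1.46-fold below CAST/EiJ (adjusted p = 1.72e-05) and did not differ from C57BL/6J (0.05, 95% interval -0.14 to 0.25).

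Cacna1d was the pore most alike in C57BL/6J and CAST/EiJ, at 122 to 167 CPM in C57BL/6J and 119 to 196 CPM in CAST/EiJ. The log2 difference between them on 10% fat was 0.11 (95% interval -0.12 to 0.33). NZO/HlLtJ was lower than CAST/EiJ by 0.40 (adjusted p = 0.00497, or 0.116 with library totals alone) and lower than C57BL/6J by 0.29 (adjusted p = 0.0382). The second call was lost in 10 alternatives, 7 of which left out 1 library, with the largest move without NZO/HlLtJ males on 10% fat, replicate 3 (-0.17, adjusted p = 0.230). In the other 6, which left out NZO/HlLtJ females on 10% fat, replicate 1 or 2, NZO/HlLtJ males, replicate 2, C57BL/6J females, replicate 3, or C57BL/6J males, replicate 3 or 4, it was -0.29 to -0.27.

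With diet, Cacna1d in NZO/HlLtJ females went from 131, 136, 152 and 158 CPM on 10% fat to 127, 97.1, 117 and 68.8 CPM on 44% fat, with no overlap. The males were at 134, 106 and 63.2 CPM on 10% fat and at 68.8, 86.9 and 58.2 CPM on 44% fat, and these overlapped because replicate 3 on 10% fat was low. The mean effect was -0.50 (SE 0.12, adjusted p = 0.00116) and was called in all 23 alternatives. The effect within a sex was -0.49 in females (adjusted p = 0.0253) and -0.51 in males (adjusted p = 0.0295), called in 11 of 17 and 5 of 15 alternatives. The male call was lost with RLE size factors (adjusted p = 0.0624), DESeq2 (0.0617) or limma (0.109), or without the 5 libraries with transcripts of another strain (0.222). Both were lost with library totals alone (adjusted p = 0.0636 and 0.151). Both were also lost when NZO/HlLtJ was fitted alone (adjusted p = 0.149 and 0.140) or when single libraries were left out. In females these were replicates 3 and 4 on 10% fat (-0.47 and -0.45) and replicates 2 and 4 on 44% fat (-0.47 and -0.34), and in males replicates 1 and 2 on 10% fat (-0.27 and -0.47) and replicates 1 and 3 on 44% fat (-0.48 and -0.38).

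Cacna1c in NZO/HlLtJ males was at 61.8, 43.6 and 31.5 CPM on 10% fat and at 37.3, 32.6 and 28.2 CPM on 44% fat, and in females at 45 to 56.9 and 36.2 to 48.6 CPM. The diets overlapped in both sexes. The mean effect of -0.33 (SE 0.10, adjusted p = 0.00888) rested on males on 10% fat, replicate 1, the highest of the 14 NZO/HlLtJ libraries: without it the value was -0.21 (adjusted p = 0.0814), and in males alone it went from -0.48 (adjusted p = 0.0149) to -0.22 (adjusted p = 0.281). The mean effect also missed the threshold with NZO/HlLtJ fitted alone (-0.34, adjusted p = 0.0505), and the male call was lost without replicate 3 on 44% fat (-0.38, adjusted p = 0.121). That male call held in 9 of 15 alternatives. Library totals alone (adjusted p = 0.159), limma (0.0699), NZO/HlLtJ fitted alone (0.0724) and leaving out the 5 libraries with transcripts of another strain (0.122) also ended it. Cacna1a gave -0.29 (SE 0.12, adjusted p = 0.0591) as a mean over the sexes, and it passed without NZO/HlLtJ females on 10% fat, replicate 2 (adjusted p = 0.0398), females on 44% fat, replicate 3 (0.0442), males on 10% fat, replicate 3 (0.0150), or males on 44% fat, replicate 2 (0.0470). Its male effect was -0.49 (adjusted p = 0.0402) and was called in only 4 of 15 alternatives. It was lost without replicate 1 (-0.30) or 2 (-0.51) on 10% fat or replicate 3 (-0.35) on 44% fat, and with the series of the sample codes as a factor. Other methods also ended it: RLE size factors (adjusted p = 0.0884), DESeq2 (0.0903), limma (0.109) and library totals alone (0.171). So did an acinar score (0.0528), NZO/HlLtJ fitted alone (0.0583) and leaving out the 5 libraries with transcripts of another strain (0.250).

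The within-library ratio of Cacna1d to Cacna1c, the L-type pores, was lower on 44% fat in C57BL/6J, where neither gene was called for diet by itself. It was at 3.45, 3.38, 3.72 and 3.16 in females on 10% fat and at 2.53, 3.13, 2.71 and 2.74 on 44% fat, with no overlap. In males it was at 2.84 to 3.10 on 10% fat and at 2.50 to 2.94 on 44% fat, which overlapped. The change was -0.23 on the log2 scale (1.17-fold, exact permutation test within sex, two-sided p = 0.00122, adjusted p = 0.00429) and held when any 1 library was left out (-0.26 to -0.21). On 10% fat the ratio was lower than in C57BL/6J by 0.50 in CAST/EiJ and by 0.35 in NZO/HlLtJ (exact permutation adjusted p = 0.00367 for both, from the smallest p this design allows, 0.000408). In NZO/HlLtJ the diet change was -0.18 (exact permutation adjusted p = 0.204), or -0.25 without males on 44% fat, replicate 2, where the exact permutation test passed after adjustment.

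Kcnj12 (ENSMUSG00000042529, chromosome 11, 61022564 to 61071131) encodes Kir2.2, a strong inward rectifier that is best known from heart and skeletal muscle. It had the largest diet effect of the 9 members in NZO/HlLtJ. In females it was at 9.11, 9.97, 13.3 and 9.85 CPM on 10% fat and at 5.67, 1.20, 1.38 and 1.84 CPM on 44% fat. In males it was at 9.46, 3.93 and 1.11 CPM on 10% fat and at 0.800, 1.02 and 1.05 CPM on 44% fat. The diets did not overlap in either sex, but the males on 10% fat spread over most of the range of all 45 libraries, and their replicate 3 lay just above the highest male on 44% fat. That replicate also had the highest macrophage markers of its group, 274 CPM.

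The log2 effect of diet on Kcnj12 was -2.20 as a mean over the sexes (SE 0.29, adjusted p = 6.43e-07), -2.05 in females (adjusted p = 0.000222) and -2.34 in males (adjusted p = 0.000162). All 3 were called under every alternative run. Single libraries set their size: the female effect was -2.83 without replicate 1 on 44% fat, and the male effect was -1.43 without replicate 1 on 10% fat and -2.81 without replicate 3. limma on the deposited variance-stabilised values gave -1.28 in males. Those values compress low counts and are averaged over libraries on a log2-like scale, and the part of each in the smaller effect was not tested. The lowest count of Kcnj12 in any library was 73, in NZO/HlLtJ males on 44% fat.

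In the other strains Kcnj12 was at 5.90 to 11 CPM in C57BL/6J and at 2.67 to 5.04 CPM in CAST/EiJ, which did not overlap on either diet. On 10% fat CAST/EiJ was 2.61-fold lower than C57BL/6J (adjusted p = 5.27e-05) and NZO/HlLtJ was 2.14-fold higher than CAST/EiJ (adjusted p = 0.000988). NZO/HlLtJ and C57BL/6J were at -0.28 (95% interval -0.80 to 0.23), or -0.72 without NZO/HlLtJ males on 10% fat, replicate 1 (adjusted p = 0.0184), and without that library the difference from CAST/EiJ was 0.64 (adjusted p = 0.0323). On 44% fat the order of NZO/HlLtJ and CAST/EiJ was the other way round, with NZO/HlLtJ 2.60-fold lower (adjusted p = 4.51e-05). The difference between CAST/EiJ and C57BL/6J on 44% fat, -0.91 (adjusted p = 0.00282), was lost without the 5 libraries with transcripts of another strain (-0.71, adjusted p = 0.145).

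Trpm5 (ENSMUSG00000009246, chromosome 7, 143069153 to 143094642), a calcium-activated cation channel of taste cells and beta cells, had a distinct level in each strain. It was at 199 to 336 CPM in CAST/EiJ, at 94.1 to 183 CPM in C57BL/6J and at 7.67 to 104 CPM in NZO/HlLtJ. On 10% fat CAST/EiJ was 2.02-fold above C57BL/6J (adjusted p = 5.94e-07), without overlap. NZO/HlLtJ was 2.01-fold below C57BL/6J (adjusted p = 1.76e-06), with 2 of its female libraries inside the C57BL/6J range, and 4.06-fold below CAST/EiJ (adjusted p = 3.14e-13). On 44% fat the last difference was 9.52-fold (adjusted p = 8.85e-19).

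In NZO/HlLtJ females Trpm5 was at 98.1, 104, 83.6 and 83.5 CPM on 10% fat and at 70.9, 45, 47.1 and 63.8 CPM on 44% fat. Males had 60.5, 51.7 and 27.4 CPM on 10% fat and 13.3, 16.6 and 7.67 CPM on 44% fat. The diets did not overlap in either sex, and the males on 10% fat already lay below all females on that diet. The effect was -1.30 as a mean over the sexes (SE 0.16, adjusted p = 2.02e-07) and -1.90 in males (SE 0.25, adjusted p = 2.03e-06), both called in all alternatives. In females it was -0.70 (SE 0.21, adjusted p = 0.0165), lost without replicate 2 on 10% fat (-0.64, adjusted p = 0.0532) or replicates 2 (-0.61, adjusted p = 0.0698) or 3 (-0.62, adjusted p = 0.0653) on 44% fat, or with NZO/HlLtJ fitted alone (-0.71, adjusted p = 0.0907). In C57BL/6J and CAST/EiJ the effect was -0.03 (95% interval -0.31 to 0.26) and -0.07 (-0.37 to 0.23).

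Trpm4 (ENSMUSG00000038260, chromosome 7, 45303155 to 45333780), the close relative of Trpm5 that is expressed in many tissues, was at 7.14 to 12.3 CPM in C57BL/6J, 6.81 to 15.2 CPM in CAST/EiJ and 6.69 to 15.4 CPM in NZO/HlLtJ. It was the one member with no call in any diet comparison, and its mean effect in NZO/HlLtJ was 0.06 (95% interval -0.20 to 0.32), which turned negative with library totals alone (-0.08), with an acinar score (-0.01), without the 5 libraries with transcripts of another strain (-0.05) and without males on 44% fat, replicate 3 (-0.04). Its only strain call was on 44% fat, 1.31-fold higher in NZO/HlLtJ than in CAST/EiJ (adjusted p = 0.00761), and this was lost without NZO/HlLtJ males on 44% fat, replicate 3 (0.29 on the log2 scale, adjusted p = 0.0506), without the 5 libraries with transcripts of another strain (0.38, adjusted p = 0.0711), with an acinar score (0.25, adjusted p = 0.0792) and with library totals alone (0.22, adjusted p = 0.143). The within-library ratio of Trpm5 to Trpm4 was at 6.50 to 11.2 in NZO/HlLtJ females on 10% fat and 4.66 to 8.07 on 44% fat, and at 6.52, 5.27 and 2.63 in males on 10% fat and 1.35, 1.39 and 0.497 on 44% fat. It fell by 1.35 on the log2 scale (exact permutation test within sex, two-sided p = 0.00571, adjusted p = 0.0129). On 10% fat it differed between all 3 strain pairs, by -1.08 between NZO/HlLtJ and C57BL/6J (exact permutation adjusted p = 0.00630), -2.11 between NZO/HlLtJ and CAST/EiJ and 1.03 between CAST/EiJ and C57BL/6J (exact permutation adjusted p = 0.00429 for both).

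Kcnk16 (ENSMUSG00000023387, chromosome 14, 20262756 to 20269162) encodes TALK-1, a tandem-pore potassium channel that is abundant in islet beta cells. Its order of strains was the reverse of that of Trpm5. It was at 104 to 162 CPM in NZO/HlLtJ on 10% fat, at 62.0 to 82.3 CPM in C57BL/6J and at 19.6 to 42.0 CPM in CAST/EiJ, the last 2 over both diets. On 10% fat NZO/HlLtJ was 1.65-fold above C57BL/6J (adjusted p = 5.69e-06) and 4.15-fold above CAST/EiJ (adjusted p = 1.95e-16), and CAST/EiJ was 2.51-fold below C57BL/6J (adjusted p = 1.15e-11), with no overlap in any of these pairs.

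With diet Kcnk16 gave opposite signs in the NZO/HlLtJ sexes. In females it was at 122, 111, 104 and 141 CPM on 10% fat and at 133, 193, 155 and 148 CPM on 44% fat (0.40, SE 0.16, adjusted p = 0.0898). In males it was at 119, 122 and 162 CPM on 10% fat and at 101, 121 and 58.5 CPM on 44% fat (-0.52, SE 0.19, adjusted p = 0.0323). The diets overlapped in both sexes, and the male call was lost without replicate 3 on 44% fat (-0.27, adjusted p = 0.344), the library at 58.5 CPM, or without replicate 3 on 10% fat (-0.37, adjusted p = 0.170). It was also lost with RLE size factors (adjusted p = 0.0565), DESeq2 (0.0555) or library totals alone (0.123). NZO/HlLtJ fitted alone (0.0813) and leaving out the 5 libraries with transcripts of another strain (0.337) ended it too. The mean over the sexes was -0.06 (95% interval -0.31 to 0.18).

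**Figure D5:**
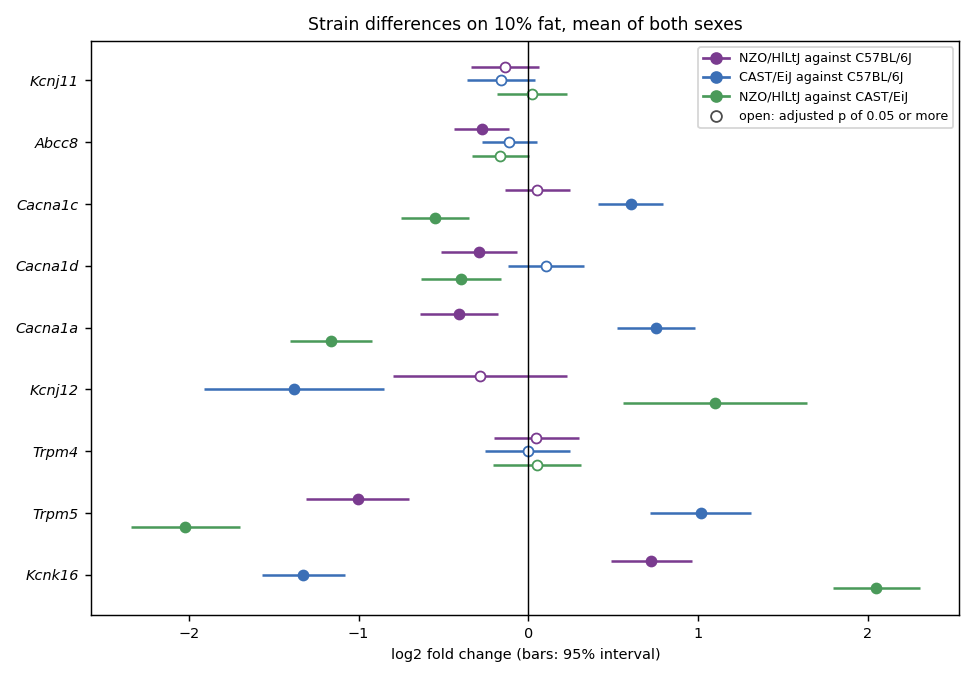
Log2 difference of each channel transcript between strains on 10% fat, as the mean of both sexes (bars are 95% intervals, filled points passed an adjusted p of 0.05). Trpm5 and Kcnk16 lie on opposite sides of 0 in each comparison, at -2.02 and 2.05 between NZO/HlLtJ and CAST/EiJ.

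On 10% fat, 5 of 9 members differed between NZO/HlLtJ and C57BL/6J (1 higher, 4 lower), 6 of 9 between NZO/HlLtJ and CAST/EiJ (2 higher, 4 lower) and 5 of 9 between CAST/EiJ and C57BL/6J (3 higher, 2 lower). These shares stand near the background, since 43.8%, 54.8% and 48.0% of all genes tested were called in these comparisons. On 44% fat the counts were 8, 9 and 7 of 9, beside 67.8%, 70.9% and 50.5% of all genes. The calls on 44% fat that single libraries ended were those of Trpm4 and Abcc8 (-0.14) between NZO/HlLtJ and CAST/EiJ, both without NZO/HlLtJ males, replicate 3. Between CAST/EiJ and C57BL/6J they were Abcc8 (-0.19 without CAST/EiJ males, replicate 1, or C57BL/6J males, replicate 3) and Cacna1d (0.24 to 0.27 without C57BL/6J females, replicate 1, 2 or 3, C57BL/6J males, replicate 1 or 2, CAST/EiJ females, replicate 1, or CAST/EiJ males, replicate 3 or 4). Without the 5 libraries with transcripts of another strain Abcc8 was lost in both (-0.16, adjusted p = 0.154, and -0.18, adjusted p = 0.118) and Cacna1d in the second (0.25, adjusted p = 0.177). Other methods also ended this Cacna1d call: DESeq2 (adjusted p = 0.0518), limma (0.0539), an acinar score (0.0546) and library totals alone (0.225). Abcc8 was lost with an acinar score between NZO/HlLtJ and CAST/EiJ (edgeR adjusted p = 0.0622). Between CAST/EiJ and C57BL/6J it was lost with library totals alone (edgeR adjusted p = 0.234). These strain comparisons share libraries with one another. Cell type markers also differed between strains on 10% fat, and their part was not tested: alpha cell markers were lower in NZO/HlLtJ than in C57BL/6J (5 of 6) and CAST/EiJ (6 of 6), endothelial markers were higher (8 of 8 in both), and of 10 beta cell markers 3 were higher and 3 lower than in C57BL/6J.

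Beyond the 9 members, a list of 113 other channel and calcium-handling genes was examined, of which 106 were tested. On 44% fat in NZO/HlLtJ, 20 rose (18.9%) and 22 fell (20.8%) as a mean over the sexes, near the 18.5% and 17.3% of all genes that did, with a median log2 fold change of -0.03 beside -0.02 over all genes. The shares in the lists that follow are to be read against the same 18.5% and 17.3%. Of 9 auxiliary subunits of calcium channels, which traffic the pores to the membrane and tune their gating, 4 fell and 0 rose, among them Cacnb2 (-0.48, adjusted p = 2.27e-06) and Cacna2d1 (-0.44, adjusted p = 0.000177). Cacna1b, the N-type pore, also fell (-0.61, adjusted p = 0.00177), the 1 of 6 other pore subunits tested to be called. Of 31 voltage- and calcium-gated potassium channels 11 fell and 4 rose. Kcnf1, a silent subunit that modifies Kcnb channels, gave -1.94 (adjusted p = 0.000150), and Kcnn4, a calcium-activated channel best known from blood and epithelial cells, gave 1.57 (adjusted p = 4.17e-06).

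Of 13 inward rectifier genes other than the members (with Abcc9, a sulfonylurea receptor), 4 rose, including Kcnj10 (1.15, adjusted p = 3.96e-05), and 1 fell, Kcnj5 (-0.68, adjusted p = 0.0185). Of 9 other tandem-pore potassium channels 3 rose and 0 fell, led by Kcnk6 (1.18, adjusted p = 0.00537) and Kcnk5 (0.77, adjusted p = 0.00227). TRP channels other than the members gave 5 higher and 3 lower of 17, led by Trpv6 (2.53, adjusted p = 0.00169) and Trpm6 (1.81, adjusted p = 2.63e-05), both at a mean under 1 CPM. Sodium channels gave 2 higher and 1 lower of 9, with Scn8a at -0.62 (adjusted p = 0.00118) and Scn4b at 1.38 (adjusted p = 0.0342). Of 12 store and endoplasmic reticulum calcium genes 2 rose and 1 fell, Orai2, a store-operated pore, at 0.68 (adjusted p = 3.24e-05) and Atp2a2, the SERCA pump that refills the store, at -0.47 (adjusted p = 0.0135). In females 7 of the 106 rose and 22 fell (6.60% and 20.8%), where 9.37% and 7.83% of all genes did. In males 29 rose and 15 fell (27.4% and 14.2%), where 17% and 15.1% did.

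Between strains on 10% fat, 23 of the 106 were higher (21.7%) and 43 lower (40.6%) in NZO/HlLtJ than in C57BL/6J, where 22.8% and 21% of all genes were, with a median of -0.16 beside -0.01 over all genes. In the same comparison 8 of 9 auxiliary calcium channel subunits were lower and 1 was higher, including Cacna2d2 (-1.75, adjusted p = 3.70e-16), and Itpr1, the inositol trisphosphate receptor of the calcium store, was lower too (-1.47, adjusted p = 2.44e-14). Cacna2d2 was also lower than in CAST/EiJ (-2.57, adjusted p = 4.00e-21), as was Kcnj5 (-4.71, adjusted p = 4.15e-19). Kcnj5, a subunit of G protein-gated inward rectifiers, had the largest difference named from these lists, 6.80 between CAST/EiJ and C57BL/6J (adjusted p = 3.18e-23), a fitted value that depends on the default prior count of the edgeR fit where a group is near 0.

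The genes whose group means of log2 CPM followed a member most closely over the 12 groups were, for Trpm5, G730003C15Rik and Nol4 (Pearson r = 0.992 for both). For Kcnj11 they were A230060F14Rik and Hadh (0.993 for both), for Cacna1d Spen (0.994) and Kmt2c (0.993), and for Kcnk16 Slc46a3 (0.995) and Cnksr1 (0.994). For Kcnj12 they were Trio (0.974) and Myo10 (0.973), for Abcc8 Cerkl (0.978) and 4933406P04Rik (0.972), for Cacna1a Klhl10 (0.986) and Pfas (0.985), and for Cacna1c 1500002C15Rik (0.983) and 0610040J01Rik (0.981). Trpm4 had the loosest matches, Pnpla2 (0.918) and Trnau1ap (0.908). These are descriptions over group means picked as the highest of 20306 genes, and the groups share their strains. Among the members, Trpm5 followed Cacna1d (0.960) and Cacna1a (0.957) and ran against Kcnk16 (-0.73), and Kcnj11 followed Abcc8 (0.897) and Kcnj12 (0.837).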

How the data were processed

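Bulk polyadenylated RNA of 45 islet libraries was analysed. The deposited gene table holds estimated counts, of which 19.4% are not whole numbers (tolerance 1e-06), and a second deposited table holds variance-stabilised values on a log2-like scale, made by the authors with DESeq2 on GRCm38 per the submitters' processing notes. No source used here names the aligner, the strandedness or any use of strain genomes. Strand matters for genes that overlap others, and a reference of another strain can change counts between strains.

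Counts were rounded and fitted with edgeR 4.0.16 in R 4.3.3 (TMM scaling, filterByExpr, robust quasi-likelihood F test, prior count 2), with 1 coefficient for each of 12 groups. Of 22904 genes 20306 were tested, and p-values were adjusted over them in each of 22 comparisons by Benjamini-Hochberg (called at 0.05). CPM values use TMM-scaled library totals, and 95% intervals are normal ones from the SE. Count ratios within libraries were tested by exact permutation within sex. Alternatives used other scalings, no filter, DESeq2 1.42.0, limma 3.58.1 on the deposited values, added covariates, fewer strains and fewer libraries. On simulated counts (19843 genes) the fit recovered 89% of 2-fold and 97% of 4-fold changes for diet in NZO/HlLtJ. Apart from these changes, each gene had the same mean in every simulated group. The simulation thus held no strain differences and no libraries with transcripts of another strain, and its rates need not carry over to these data. The genes described and the lists were chosen with earlier results of these data known, among them the fall of Trpm5 and Kcnj12 in NZO/HlLtJ. All 9 members are named, and from each other list at most the 2 called genes with the largest absolute log2 fold change for diet in NZO/HlLtJ and in each strain comparison on 10% fat. For each member the 2 genes most correlated with it over the group means are named. Promoter windows come from RefSeq tables and exon lengths from GENCODE M21.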

Additional observations from a re-analysis of the deposited data

Results flagged for a closer look

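Each of the 9 members and 3 ratios was examined in each of the 9 groups of 4, and in 6 of these 108 sets, all of member values, 1 library lay far from the other 3, where chance gives about 1 in 20. Cacna1a was at 100.1 CPM in C57BL/6J females on 44% fat, replicate 4, and at 67.4 to 68.4 CPM in the rest of that group. Kcnj12 was at 5.67 CPM in NZO/HlLtJ females on 44% fat, replicate 1, and at 1.20 to 1.84 CPM in the others. Trpm4 was at 7.23 CPM in CAST/EiJ females on 44% fat, replicate 3, against 8.52 to 8.73 CPM. Kcnk16 stood apart in 3 groups: it was at 62.0 CPM in C57BL/6J females on 10% fat, replicate 4 (others 79.9 to 82.3 CPM), the library with 25.6% acinar transcripts, at 38.0 CPM in CAST/EiJ females on 10% fat, replicate 3 (others 25.5 to 27.6 CPM), and at 19.6 CPM in CAST/EiJ males on 44% fat, replicate 1 (others 25.9 to 26.6 CPM).

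The effect of diet differed between the sexes of NZO/HlLtJ, as the male minus the female log2 effect, for Trpm5 (-1.19), Kcnk16 (-0.92), Kcnj11 (-0.82) and Abcc8 (-0.55), all lost without NZO/HlLtJ males on 44% fat, replicate 3. It differed between NZO/HlLtJ and C57BL/6J for Kcnj12 (-2.0), Trpm5 (-1.27), Kcnj11 (-0.70), Cacna1c (-0.54) and Cacna1d (-0.46), and between NZO/HlLtJ and CAST/EiJ for Kcnj12 (-2.48), Trpm5 (-1.23), Kcnj11 (-0.78) and Cacna1d (-0.63).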

How the results depend on the processing

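Of 4806 member values under alternatives, 4641 stayed on their side of the threshold, 136 lost a call, 29 gained one and 0 called values reversed. The 4641 include 200 uncalled values that changed sign. The count of members lower on 44% fat in NZO/HlLtJ males, 8, was 5 with RLE size factors, DESeq2 or limma, and 3 with library totals alone, without the 5 libraries with transcripts of another strain, or with NZO/HlLtJ fitted alone, where the count in females was 1 in place of 3. The 4 members whose diet effect differed between the sexes became 0 with library totals alone, without those 5 libraries, and with the strain alone. The 5 between NZO/HlLtJ and C57BL/6J on 10% fat became 2 with library totals alone, and the 7 between CAST/EiJ and C57BL/6J on 44% fat became 4 without the 5 libraries. The causes were not tested. Library totals alone moved the median of all genes for diet in NZO/HlLtJ from -0.02 to -0.15. Of all genes tested for that effect 3762 were higher and 3508 lower, against 2370 and 2711 with library totals alone, 4160 and 2906 with RLE, 4102 and 3024 with DESeq2, and 4199 and 2821 with limma.

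Leaving out 1 library gave 4 to 7 members for diet in NZO/HlLtJ (1 to 4 in females, 3 to 8 in males, 0 to 4 by sex), 4 to 6 and 4 to 5 for its difference from C57BL/6J and CAST/EiJ, and 0 in every fit for diet in C57BL/6J and CAST/EiJ (also by sex), their difference, and sex. On 10% fat it gave 4 to 6 (NZO/HlLtJ and C57BL/6J), 6 to 7 (NZO/HlLtJ and CAST/EiJ) and 5 (CAST/EiJ and C57BL/6J), and on 44% fat 8, 7 to 9, and 6 to 7.

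Within 1 sex no ratio passed after adjustment, but with 3 or 4 libraries per group these exact tests could hardly pass. With 3 libraries per diet, as in NZO/HlLtJ males, the smallest possible p is above 0.05 before any adjustment. The tests therefore cannot decide whether a ratio differed within a sex. Values for females and males alone were 0.47 and 0.78 for Abcc8/Kcnj11 with diet in NZO/HlLtJ. Cacna1d/Cacna1c gave -0.30 and -0.16 with diet in C57BL/6J, -0.26 and -0.45 between NZO/HlLtJ and C57BL/6J, and -0.62 and -0.39 between CAST/EiJ and C57BL/6J. Trpm5/Trpm4 gave -0.51 and -2.20 with diet in NZO/HlLtJ, -0.47 and -1.68 between NZO/HlLtJ and C57BL/6J, -1.58 and -2.64 between NZO/HlLtJ and CAST/EiJ, and 1.11 and 0.96 between CAST/EiJ and C57BL/6J. Leaving out 1 library, Abcc8/Kcnj11 ranged from 0.57 to 0.68 with diet in NZO/HlLtJ, 0.05 to 0.12 in C57BL/6J and -0.13 to -0.07 in CAST/EiJ, and from -0.19 to -0.09, -0.23 to -0.13 (called without NZO/HlLtJ males on 10% fat, replicate 3) and 0.01 to 0.08 for the strain pairs in the order above. Cacna1d/Cacna1c ranged from -0.25 to -0.12, -0.26 to -0.21 and 0.07 to 0.14 with diet, and -0.39 to -0.32, 0.11 to 0.19 and -0.54 to -0.47 between strains. Trpm5/Trpm4 ranged from -1.55 to -1.11, -0.01 to 0.17 and 0.05 to 0.29 with diet, and -1.21 to -0.89, -2.25 to -1.92 and 0.93 to 1.17 between strains. No paired analysis was possible because the labels number no replicates. The series of the sample codes could be added as a factor, and it moved 2 calls: Cacna1a in NZO/HlLtJ males was lost (-0.37, adjusted p = 0.109, 7 members lower in place of 8) and the difference in diet effect between NZO/HlLtJ and CAST/EiJ was gained for Cacna1c (-0.37, adjusted p = 0.0460, 5 members in place of 4). The lowest member count in a library was 73 (Kcnj12).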
